A study of Mus musculus with 360 samples.

Results

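The genes described here were the collagen genes outside the main bone, skin and cartilage fibrils. They were taken by name, as every row of the count tables written Col, a number, the letter a and a number, leaving out 14 genes: those of types I, II, III, V, IX, X and XI, and Col8a1. This left 30 of the 44 collagen genes among 24015 rows, and no measured value entered the choice. By structure, 7 encode network-forming chains (Col4a1 to Col4a6 and Col8a2), 6 the beaded filaments of type VI (Col6a1 to Col6a6) and 6 FACIT chains (Col12a1, Col14a1, Col16a1, Col19a1, Col20a1, Col22a1). A further 2 encode multiplexins (Col15a1, Col18a1), 4 transmembrane collagens (Col13a1, Col17a1, Col23a1, Col25a1) and 5 others (Col7a1, Col24a1, Col26a1, Col27a1, Col28a1).

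Collagens are proteins of 3 chains wound into a triple helix, and the family members differ in how the helices assemble. Type IV chains polymerise into the sheet of basement membranes, type VI forms beaded filaments around cells, and FACITs, the fibril-associated collagens with interrupted helices, decorate the surface of fibrils that other collagens build. Multiplexins sit at basement membranes, transmembrane collagens span the cell membrane with the helix outside, and in bone, tendon and suture tissue these minor collagens lie beside a matrix dominated by type I collagen.

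The study compared skeletal stem and progenitor cells of cranial sutures, the fibrous joints of the skull vault, that fuse with those of sutures that do not. Single cells were sorted as CD51+ and CD200+, negative for CD45, Ter119, Tie2, Thy1, 6C3 and CD105, from wild type CD-1 mice at postnatal day 3, and read by full-length single-cell RNA-seq. The tissues were the posterior frontal suture (PF), which fuses in early life, the sagittal (SAG) and coronal (COR) sutures, which remain patent, and the growth plate (GP) of the tibia as a reference. All 4 groups share strain, genotype and age, no agent was given, and cells of pooled mice cannot be assigned to an animal. Each suture was dissected as the whole suture complex, that is the bone fronts and mesenchyme together with dura mater and periosteum.

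Of 360 cells, 325 had at least 500 genes and 10000 reads: PF gave 87 (34 on plate 1, 53 on plate 2), COR 74 (16 and 58), SAG 86 (30 and 56) and GP 78 (20 and 58). No animal was named, so each tissue is 1 sample, no test was made between tissues, and the 2 plates of a tissue give the only spread; plate and tissue cannot be told apart. SAG plate 2 stood apart: the ribosomal RNA gene Rn45s held 86.8% of its reads, against 20.2% to 30.96% on the other 7 plates, and its cells had a median of 875 genes against 2111.5 to 3867. Rn45s is therefore left out of all totals, which leaves medians of 125830 to 511698 reads per cell on the 8 plates, and SAG levels are given by plate, or calls with SAG plate 1 alone, where a result turns on them. No cell had counts identical to another. Itgav, which encodes CD51, had reads in 18.6% of SAG cells to 60.8% of COR cells and Cd200 in 33.7% of SAG to 55.4% of COR cells, but on SAG plate 2 in 5.36% and 16.1%. Tek, which encodes Tie2, had no read in any passing cell, but other markers sorted against did. Enpep, which encodes 6C3, was read in every tissue, from 3.85% of GP cells to 6.98% of SAG cells. Eng, which encodes CD105, was found in 4 cells of each suture and in no GP cell. Ptprc, which encodes CD45, had reads in 3 PF cells, with 1 cell each in COR and GP. Thy1 was found in 1 PF and 1 COR cell.

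Levels are CPM, the reads of a gene per 1000000 reads of all genes but Rn45s, both summed over the cells of a tissue or plate, with exact Poisson intervals at 95%, and shares of cells carry exact Clopper-Pearson intervals. Where a count is 0, the limit it allows is given in another way, as 3 cells of the total for a share and 3 reads for a level. Both cover counting error only, since the reads carry no molecular identifiers and the cells are no replicates of an animal. In bulk sums, fewer cells with a transcript and less of it per cell cannot be told apart, so shares are given beside the levels. A ratio is log2((CPM + 1)/(CPM + 1)), which understates changes of low genes, and a gene is called higher in a tissue where the tissues differ by at least 2-fold and all 4 ratios of a plate of one to a plate of the other have the same sign. The rule ran over the 10578 genes with a mean of at least 5 CPM over the 4 tissues, of which 21 are members. A member can pass that filter only with the help of its highest tissue, as Col15a1, Col25a1 and Col28a1 did with GP.

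The 30 genes together reached 6833 CPM in PF, 8741 in COR, 7365 in SAG and 9182 in GP. They made up 4.25%, 6.43%, 12.3% and 6.07% of all collagen reads in the same order, the share in SAG being 6.94% on plate 1 and 18.4% on plate 2. Col12a1, Col6a1, Col6a2 and Col6a3 alone held 61.5% of the members' CPM in PF, 81.6% in COR, 78.2% in SAG and 73.9% in GP. A read of the gene in at least 20% of cells was found for 11 members in PF, 12 in COR, 9 in SAG and 11 in GP, and a cell had reads of a median of 8 members in PF, COR and GP and 5 in SAG. Per kilobase of exon, Col6a1 had the highest level in PF (239 CPM per kb), COR (458) and GP (388), and Col12a1 in SAG (219).

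**Figure D1:**
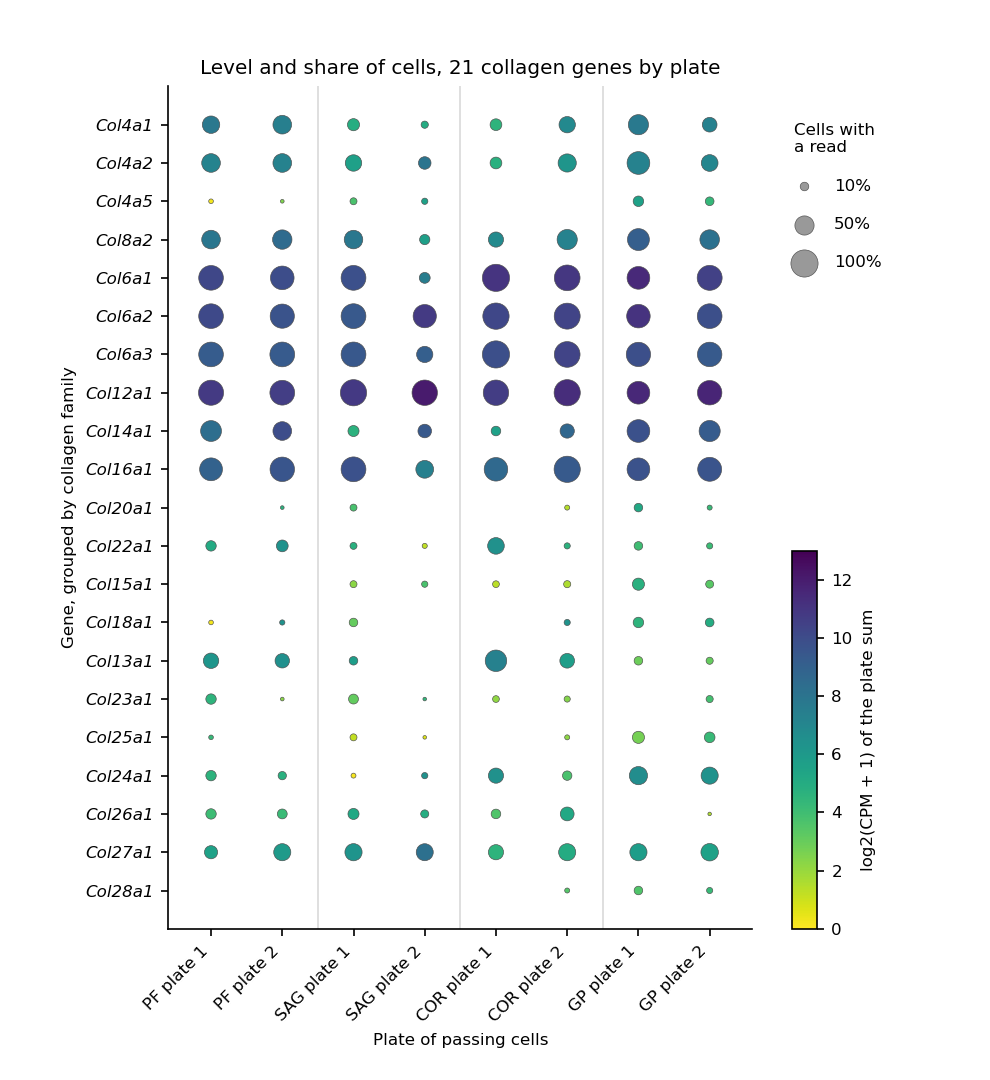
Level and share of cells for the 21 members above the mean of 5 CPM. Columns are the 8 plates, rows the genes by family, dot colour the log2(CPM + 1) of the plate sum and dot area the share of cells with a read. The type VI chains, Col12a1 and Col16a1 form the dark, large rows on the PF, COR and GP plates, while Col13a1, Col22a1, Col24a1 and Col26a1 are in few cells and change from tissue to tissue.

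Among the network-forming chains, Col4a1 and Col4a2 encode the pair that makes up most basement membranes, usually as 2 chains of the former with 1 of the latter. The genes lie head to head on chromosome 8, and in the RefSeq annotation of GRCm38.p6 their first transcribed bases overlap by 22 bases (chr8:11312805-11312826, Col4a1 on the minus and Col4a2 on the plus strand). The overlap, the only stretch transcribed from both genes, is shown 5′ to 3′ on the plus strand, with the GC box GGGCGG in capitals.
Col4a1 and Col4a2 shared start: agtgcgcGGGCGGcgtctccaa
The other type IV pairs have the same arrangement, with 71 bases between Col4a4 and Col4a3 on chromosome 1 and 1308 between Col4a6 and Col4a5 on chromosome X. Whether reads were counted by strand is not stated, and the overlap is 0.323% of the exon length of Col4a1 and 0.332% of that of Col4a2.

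Col4a1 was read at 225 and 172 CPM on the PF plates, 29.4 and 32.5 on the SAG plates, 22.9 and 119 on the COR plates and 216 and 160 on the GP plates. Both SAG and both COR plates lay below both PF and both GP plates, and the COR plates stood on either side of the SAG plates. The tissue sums were 182 CPM in PF (178 to 187) and 31.3 in SAG (28.7 to 34.01), a log2 difference of 2.51 with plate ratios from 2.37 to 2.89, and 170 in GP, with SAG against GP at -2.41. With plate 1 of SAG alone these values were 2.59 and -2.49. A read was found in 44.8% of PF cells (34.1 to 55.9), 11.6% of SAG (5.72 to 20.3), 32.4% of COR (22 to 44.3) and 35.9% of GP cells (25.3 to 47.6).

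As a sum, genes of smooth muscle and pericytes, cells that lie on vascular basement membranes, were lowest in SAG, as Col4a1 was. The sum of a list of 9 was 240 CPM in SAG, 573 in COR, 1097 in PF and 2067 in GP, and Acta2, its highest gene in PF, COR and GP, was at 1.10 CPM in SAG against 1633 in GP, 548 in PF and 432 in COR. Myh11 and Rgs5 had no read in SAG and COR. Cspg4, also on the list, went the other way. It was at 186 CPM in SAG (58.8 and 270 on the plates) against 45.9 in PF, 83.8 in COR and 52.5 in GP. At least 5 of the 9 genes were read in 5 cells, 2 of PF and 3 of GP, which held 1.35% of all reads, 17.3% of the Col4a1 reads and 3.44% of the Col4a2 reads. Their part in the result was not tested.

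Col4a2 did not follow its partner in SAG. It was at 144 and 150 CPM on the PF plates, 50.5 and 256 in SAG, 26.3 and 74.2 in COR and 150 and 132 in GP, so that the COR plates lay below both PF and both GP plates and the SAG plates stood on either side of them. PF exceeded COR by 1.09 on the log2 scale (plate ratios 0.95 to 2.47), a call that met the rule. With SAG plate 1 alone, PF exceeded SAG by 1.54 and SAG against GP came to -1.40, both called, and with both plates neither was. Per kilobase, Col4a1 was 1.19 times Col4a2 in PF, 1.53 in COR and 1.22 in GP, but 0.565 on SAG plate 1 and 0.123 on SAG plate 2, and in COR it was 0.845 on plate 1 and 1.55 on plate 2.

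In single cells the pair went together. Across the 325 cells, 74 had reads of both genes, 27 of Col4a1 alone and 55 of Col4a2 alone. Col4a2 was read in 73.3% of the cells with Col4a1 and in 24.6% of those without. The Spearman correlation of log2(CPM + 1) across cells was 0.67 in PF (n = 87; 0.86 and 0.52 within plates), 0.50 in GP (n = 78; 0.67 and 0.42), 0.37 in COR (n = 74; 0.58 and 0.32) and 0.27 in SAG (n = 86; 0.14 and 0.38). Cells share library chemistry and plate, so these values are a description.

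The remaining type IV chains, which in other tissues form specialised basement membranes such as that of the kidney glomerulus, were rare. Col4a5 had reads in 2 PF cells, 5 SAG, no COR and 9 GP cells, at 3.76, 33.8, 0 and 23.7 CPM. The 0 of 74 COR cells allows a share of up to 4.05%, and against the floor of 3 reads in a tissue GP was at least 254-fold and SAG at least 361-fold higher than COR. The call of SAG and GP over PF and COR rests on few cells, with 50.3% of the SAG reads and 46.4% of the GP reads in 1 cell each. On the SAG plates it was at 12.4 and 48.1 CPM, and with plate 1 alone SAG stayed called over PF (-1.49) and COR. Col4a3 had 465 reads in 1 PF cell and 1 read in COR, Col4a4 was found in 1 COR and 4 GP cells, and Col4a6 in 1 cell each of PF, SAG and GP; no cell had both Col4a3 and Col4a4.

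Col8a2 encodes a short-chain network collagen known from the membrane under the corneal endothelium. It was at 241 and 358 CPM on the PF plates, 231 and 51.6 in SAG, 111 and 147 in COR and 548 and 292 in GP. PF and GP, whose plates overlapped each other, both lay above the COR plates, by 1.22 on the log2 scale for PF (plate ratios 0.71 to 1.68) and -1.22 for COR against GP (-2.29 to -0.98). Shares did not follow the levels, with reads in 49.4% of PF cells, 50% of COR, 55.1% of GP and 25.6% of SAG cells. The calls of PF and GP over SAG (1.43 and -1.44) rested on SAG plate 2: SAG plate 1 alone lay just below the lower PF plate, and neither call was met.

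The 250 bases before the start of transcription are shown for Col8a2 and for Col13a1, Col24a1 and Col6a1, each with at least 1 call that held under every alternative run and a window in the RefSeq table (GRCm38.p6). Col4a1 and Col4a2 also have such a call, and for them the stretch their starts share is shown above. Each is written 5′ to 3′ on the gene's own strand, with capitals marking 4 motifs on either strand, namely the GC box spelled GGGCGG, the TATA box spelled TATAAA, the CCAAT box, and the core bound by RUNX factors, spelled TGTGGT. A GC box on the opposite strand therefore appears as its reverse complement, and neighbouring copies may overlap.
Col8a2, chr4:126286544-126286793, plus strand: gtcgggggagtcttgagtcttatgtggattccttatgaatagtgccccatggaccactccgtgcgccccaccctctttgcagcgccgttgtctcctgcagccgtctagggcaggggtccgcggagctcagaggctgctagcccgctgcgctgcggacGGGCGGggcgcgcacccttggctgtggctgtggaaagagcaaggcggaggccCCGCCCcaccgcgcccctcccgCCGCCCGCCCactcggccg
Col13a1, chr10:61979109-61979358, minus strand: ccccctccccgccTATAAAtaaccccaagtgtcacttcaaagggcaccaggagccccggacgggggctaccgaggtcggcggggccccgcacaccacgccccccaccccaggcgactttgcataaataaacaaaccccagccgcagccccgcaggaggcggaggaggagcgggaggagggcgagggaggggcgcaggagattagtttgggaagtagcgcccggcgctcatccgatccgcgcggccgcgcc
Col24a1, chr3:145292222-145292471, plus strand: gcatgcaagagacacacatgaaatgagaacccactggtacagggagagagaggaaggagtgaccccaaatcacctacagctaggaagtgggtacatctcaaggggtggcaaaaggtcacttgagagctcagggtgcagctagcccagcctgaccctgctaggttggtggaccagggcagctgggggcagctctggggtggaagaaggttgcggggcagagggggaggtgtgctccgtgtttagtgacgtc
Col6a1, chr10:76726045-76726294, minus strand: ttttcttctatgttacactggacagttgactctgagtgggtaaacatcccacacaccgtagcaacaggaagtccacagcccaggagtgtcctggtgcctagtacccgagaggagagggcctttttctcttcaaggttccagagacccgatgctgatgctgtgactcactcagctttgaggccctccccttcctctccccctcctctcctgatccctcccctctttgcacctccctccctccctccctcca
The Col8a2 window held 4 copies of GGGCGG and was 70% G and C, the Col13a1 window held 1 TATAAA at 68.8% G and C, and those of Col24a1 (58%) and Col6a1 (56%) held none of the 4 motifs, where the median of all 32851 windows was 52.4%. Windows were found for 25 of the 30 members, 27 in all. GGGCGG was in 15 of these 27 and in 32.7% of all windows, CCAAT in 9 and 33.8%, TGTGGT in 2 and 14%, and TATAAA in 2 and 12.4%. A match describes these letters and shows no binding.

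The type VI chains Col6a1, Col6a2 and Col6a3 assemble as a heterotrimer into beaded filaments, and they were among the most widely read members. Col6a1 was at 1221 and 1010 CPM on the PF plates, 920 and 185 in SAG, 2138 and 1996 in COR and 2890 and 1458 in GP. Both COR plates lay above both PF and both SAG plates, and the GP plates lay on either side of COR. The log2 ratio of SAG to COR was -2.07 (plate ratios -3.52 to -1.12, and -1.13 with SAG plate 1 alone), which met the rule, and PF and GP were called over SAG (1.13, and -1.83 for SAG against GP). These ratios were 0.19 and -0.89 with SAG plate 1 alone, and not called.

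Col6a3, the largest of the 3 chains, was at 615 and 627 CPM in PF, 706 and 551 in SAG, 951 and 1331 in COR and 956 and 657 in GP. COR was the highest tissue at 1293 CPM (1280 to 1305), -1.05 for PF against COR and -1.08 for SAG against COR on the log2 scale, and both differences lie just past the 2-fold bound. The second was -0.87 with SAG plate 1 alone, and not called. Col6a2 was at 1127 and 819 CPM in PF, 674 and 1781 in SAG, 1193 and 1315 in COR and 2213 and 955 in GP, and was not called in any of the 6 comparisons. Its SAG plates stood further apart than any pair of tissues.

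Reads of all 3 chains were found in 205 of 325 cells, or 63.1%. The share was 68.97% in PF, 83.8% in COR and 71.8% in GP, and it was 66.7% on SAG plate 1 against 12.5% on SAG plate 2. In the 269 cells without SAG plate 2 it came to 73.6%. On SAG plate 2, 33 of 56 cells had reads of Col6a2 and none of Col6a1, where the other 7 plates held 13 such cells among 269. Col6a1 and Col6a2 ran parallel outside that plate, with a Spearman correlation of 0.71 over the 269 cells, from 0.46 on PF plate 1 to 0.83 on GP plate 1 within the other plates. The genes lie 85161 bases apart on chromosome 10, on the same strand.

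**Figure D2:**
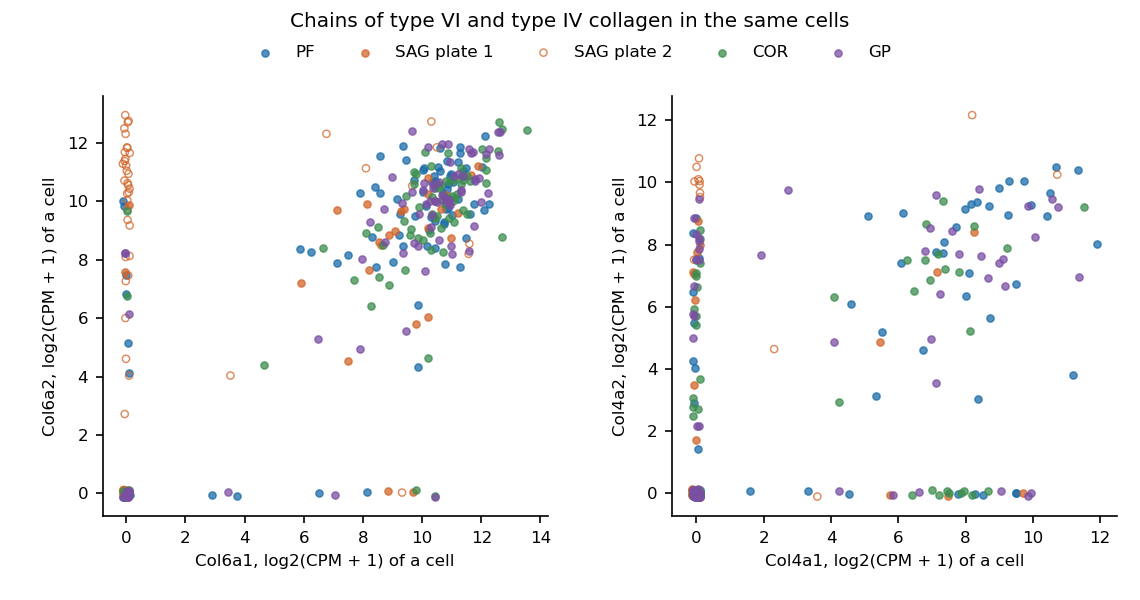
Each point is 1 of 325 cells, with log2(CPM + 1) of the first chain on the x axis and of its partner on the y axis, slightly jittered, and colour giving the tissue. In the left panel most cells lie on a common band of Col6a1 and Col6a2. Of the 56 open circles of SAG plate 2, 47 stand at 0 on the Col6a1 axis, 33 of them with reads of Col6a2. In the right panel the 74 cells with both Col4a1 and Col4a2 form a looser band.

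The alternative partner chains of type VI were almost silent. Col6a5 was read in 2 SAG cells, 1 COR and 1 GP cell, Col6a6 in 1 GP cell, and Col6a4 had no read in any cell, before or after the cell filter. For Col6a4 and for the FACIT gene Col19a1, which likewise had none, 0 of 87, 86, 74 and 78 cells allow shares of up to 3.45%, 3.49%, 4.05% and 3.85% in PF, SAG, COR and GP.

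Of the FACITs, Col12a1 encodes a chain that coats type I collagen fibrils in tissues under load. It had the highest CPM of all members in PF, SAG, COR and GP, at 1772 and 1618 on the PF plates, 1840 and 4319 in SAG, 1631 and 2626 in COR and 3035 and 3234 in GP. The SAG plates lay above both PF plates and the call of SAG over PF was met (-1.01, plate ratios -1.42 to -0.05), but plate 1 of SAG was close to PF plate 1 and without plate 2 the call was not met. Shares were high in all tissues, from 78.2% of GP cells and 83.9% of PF cells to 89.5% in SAG and 91.9% in COR.

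Col14a1, the FACIT known from tendon and dermis, was uneven between plates. It was at 327 and 995 CPM in PF, 24.6 and 695 in SAG, 47.9 and 420 in COR and 864 and 618 in GP, and no comparison with all plates was called. With SAG plate 1 alone, PF, COR and GP each exceeded SAG (5.08, -3.90 and -4.69 on the log2 scale). The share of cells separated the tissues more clearly, with 51.7% of PF (40.8 to 62.6) and 62.8% of GP cells (51.1 to 73.5) against 22.1% of SAG (13.9 to 32.3) and 24.3% of COR cells (15.1 to 35.7). After thinning each cell to 100000 reads, which kept 70, 67, 80 and 71 cells of PF, GP, SAG and COR, the shares were 48.6%, 67.2%, 22.5% and 25.4%.

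Col16a1, found in fibril-rich connective tissue, was at 506 and 764 CPM in PF, 869 and 164 in SAG, 385 and 658 in COR and 856 and 778 in GP, and it was read in 89.2% of COR, 77.01% of PF, 75.6% of GP and 56.98% of SAG cells. Its plates overlapped between the tissues and it was not called in any comparison. Col22a1, a FACIT of tissue junctions, was at 33.1 and 84.8 CPM in PF, 25.6 and 1.35 in SAG, 88.6 and 24.7 in COR and 15.4 and 16.6 in GP. PF exceeded GP by 2.12 and SAG by 2.65 on the log2 scale (1.51 with SAG plate 1 alone), with reads in 15 of 87 PF cells against 5 of 78 GP and 4 of 86 SAG cells. Of its PF reads, 26.2% came from 1 cell. Col20a1 was read in 1, 2, 2 and 4 cells of PF, SAG, COR and GP, and its calls are given with the glial genes below.

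The transmembrane collagen Col13a1, a protein of cell adhesion sites and of the neuromuscular junction, was higher in PF and COR than in the growth plate. In mm9 it spans chr10:61300984-61441856 on the minus strand, in 45 exon blocks. It was at 73.5 and 92.3 CPM on the PF plates, 55.9 and 0 in SAG, 162 and 53.1 in COR and 6.68 and 7.27 in GP. Both PF and both COR plates lay above both GP plates, and so did SAG plate 1, whereas SAG plate 2 had no read in 56 cells. PF exceeded GP by 3.46 on the log2 scale (plate ratios 3.17 to 3.60), COR by 3.00 (2.71 to 4.41) and SAG plate 1 by 2.80. Reads were in 29.9% of PF cells (20.5 to 40.6) and 36.5% of COR cells (25.6 to 48.5) against 7.69% of GP (2.88 to 15.99) and 3.49% of SAG cells (0.725 to 9.86), where all 3 cells were on plate 1 and 1 of them held 80.7% of the reads. After thinning, the shares were 32.9%, 35.2%, 5.97% and 2.5% for PF, COR, GP and SAG.

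The other transmembrane members were low. Col25a1, known from motor axon guidance into muscle, was read in 13 GP cells against 1 PF, 3 SAG and 2 COR cells, at 15.6 CPM in GP against 0.871 in SAG and 3.28 in COR, and GP was called over SAG and COR (-3.15 and -1.96 on the log2 scale for SAG and COR against GP, and -2.85 with SAG plate 1 alone). The single PF cell held 108 reads. Col23a1 was in 4 to 6 cells of each tissue, and its call of SAG over COR (1.66) rests on 1 cell with 79.9% of the SAG reads. That ratio was 0.76 with SAG plate 1 alone, and not called. Col17a1, a protein of epithelial hemidesmosomes, was in 1 PF and 1 SAG cell.

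Col26a1, an atypical collagen described in testis and ovary, was higher in all 3 sutures than in the growth plate. In mm9 it lies at chr5:137217629-137359079 on the minus strand, where the annotation calls it Emid2. It was at 15.9 and 17.4 CPM in PF, 36.2 and 30.2 in SAG, 11.1 and 36.5 in COR, and 0 and 2.04 in GP. Every suture plate lay above both GP plates, SAG plate 2 included. The log2 differences from GP were 2.75 in PF (plate ratios 2.47 to 4.20), 3.64 in SAG (3.36 to 5.22; 3.79 for plate 1 alone) and 3.70 in COR (2.00 to 5.23). Reads were in 12 of 87 PF, 10 of 86 SAG and 17 of 74 COR cells against 1 of 78 GP cells, so that its share in GP was 1.28% (0.0325 to 6.94). In COR, 42.6% of the reads came from 1 cell.

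Col24a1 encodes a fibrillar chain described in developing bone, and was higher in GP than in PF. In mm9 it lies at chr3:144955436-145214975 on the plus strand. It was at 23.7 and 25.9 CPM in PF, 0.145 and 87.4 in SAG, 88.6 and 12.4 in COR and 101.4 and 85.5 in GP. Both GP plates lay above both PF plates, and PF against GP came to -1.75 (plate ratios -2.05 to -1.68), with the COR and SAG plates on either side. The share of cells was 41.03% in GP (30.01 to 52.7), 16.2% in COR (8.67 to 26.6), 11.5% in PF (5.65 to 20.1) and 4.65% in SAG (1.28 to 11.5). In PF 60.5% and in SAG 54.6% of the reads came from 1 cell, and SAG plate 2 owed its level to 3 cells.

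Col27a1, a fibrillar chain of cartilage, was at 46.2 and 62.2 CPM in PF, 74.9 and 301 in SAG, 22.9 and 32.01 in COR and 54.7 and 46.7 in GP. Both SAG plates lay above all other plates, and SAG was called over PF (-1.82), COR (2.72) and GP (2.11). With SAG plate 1 alone the call over COR was kept (1.24) and the other 2 were not. The shares of cells hardly differed, at 33.3% in PF, 37.8% in COR, 39.5% in SAG and 41.03% in GP, each within the interval of the others. Col7a1, the anchoring fibril collagen of skin, had 9 reads in 1 COR cell.

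**Figure D3:**
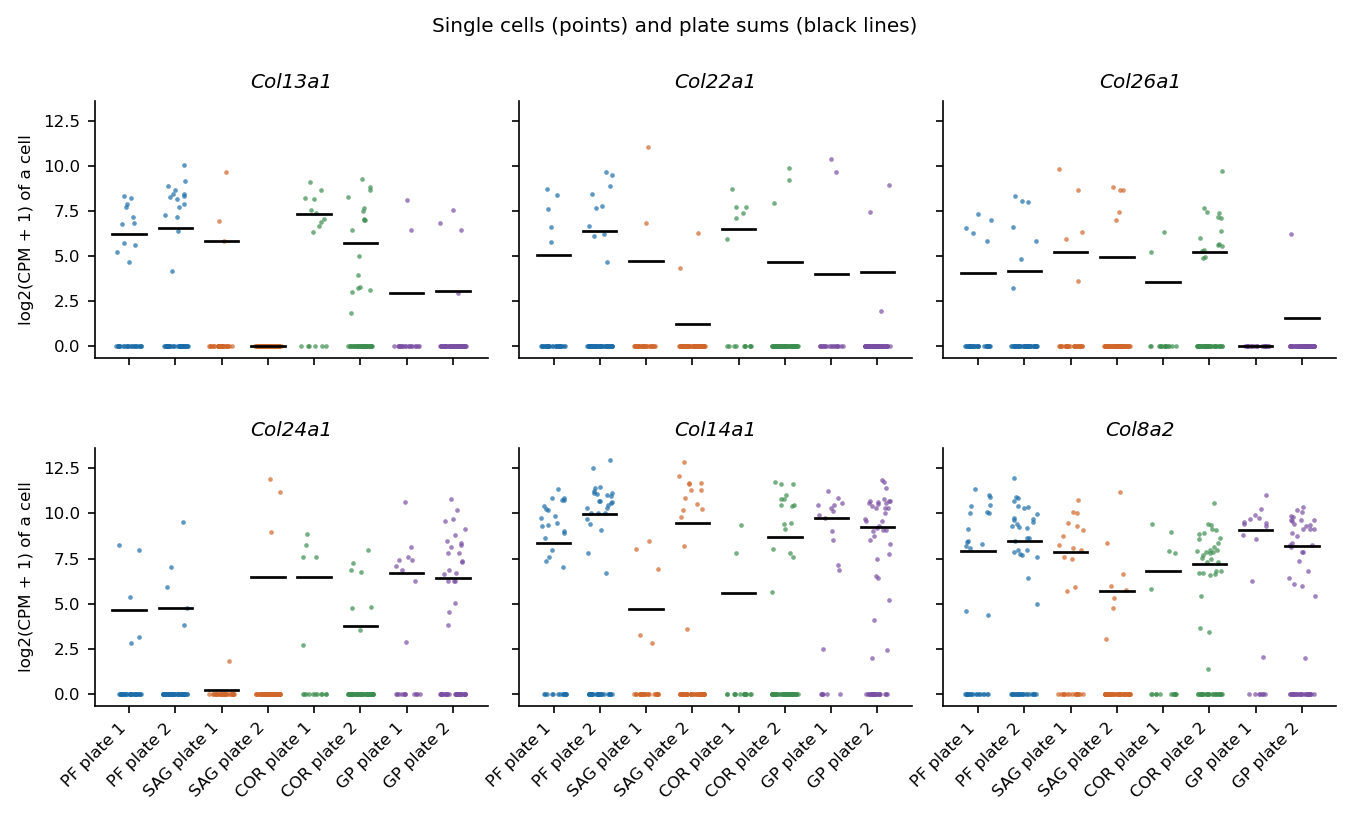
Points are single cells with log2(CPM + 1) on the y axis, by plate on the x axis and coloured by tissue, and black lines give the level of the plate sum. Col26a1 has more cells above 0 on the suture plates than on the GP plates (1 of 78 GP cells). Col13a1 has more on the PF and COR plates than on the GP plates (6 of 78), with none on SAG plate 2. Col24a1 has more on the GP plates (32 of 78). Col14a1 is above 0 in a larger part of PF and GP cells (45 of 87 and 49 of 78) than of SAG and COR cells. Col8a2 is above 0 in 43 of 87 PF, 37 of 74 COR and 43 of 78 GP cells.

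Beside each count of members called stands the share of all tested genes that met the same rule in the same direction. Between sutures, 3 of 21 members were higher in PF than in COR (Col4a2, Col4a5, Col8a2) and 2 higher in COR (Col6a3, Col15a1), where 5.1% and 6.49% of the 10578 genes were called. For PF against SAG, 5 were higher in PF (background 17.1%) and 4 in SAG (12.1%), and for SAG against COR 4 were higher in SAG (12.3%) and 2 in COR (19.2%). With SAG plate 1 alone, 5 members were higher in PF than in SAG (17.1%) and 3 in SAG (15.3%), and 3 were higher in SAG than in COR (14.3%) and 3 in COR (16.6%).

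Against the growth plate, 3 members were higher in PF (Col13a1, Col22a1, Col26a1; background 7.53%) and 4 in GP (Col4a5, Col15a1, Col24a1, Col28a1; 8.27%). In COR against GP, 2 were higher in COR (Col13a1, Col26a1; 6.36%) and 5 in GP (Col4a5, Col8a2, Col15a1, Col20a1, Col25a1; 6.68%). Since Col15a1, Col25a1 and Col28a1 passed the filter only with the help of their level in GP, their calls are built into these counts. With a mean of at least 20 CPM, 1 member was higher in GP than in PF and 1 higher in GP than in COR. The share of all genes called under that filter was not computed. In SAG against GP, 2 were higher in SAG (Col26a1, Col27a1; 12.2%) and 7 in GP (18.2%), and with SAG plate 1 alone 2 in SAG (Col13a1, Col26a1; 15.4%) and 8 in GP (17.1%). The median log2 difference of the 21 members was -0.15 for PF, -0.53 for SAG and -0.63 for COR against GP, beside 0.09, -0.27 and 0.07 over all tested genes. Between sutures it was 0.33 for PF against COR, 0.03 for PF against SAG and -0.06 for SAG against COR, beside 0.01, 0.31 and -0.33. Taking SAG plate 1 alone, the members' median was -0.80 for SAG against GP beside 0.02, 0.38 for PF against SAG beside 0.04, and -0.45 for SAG against COR beside -0.05, so that between sutures the members stood on the other side of the median of all genes than with both plates. The comparisons share tissues and are not independent of each other.

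**Figure D4:**
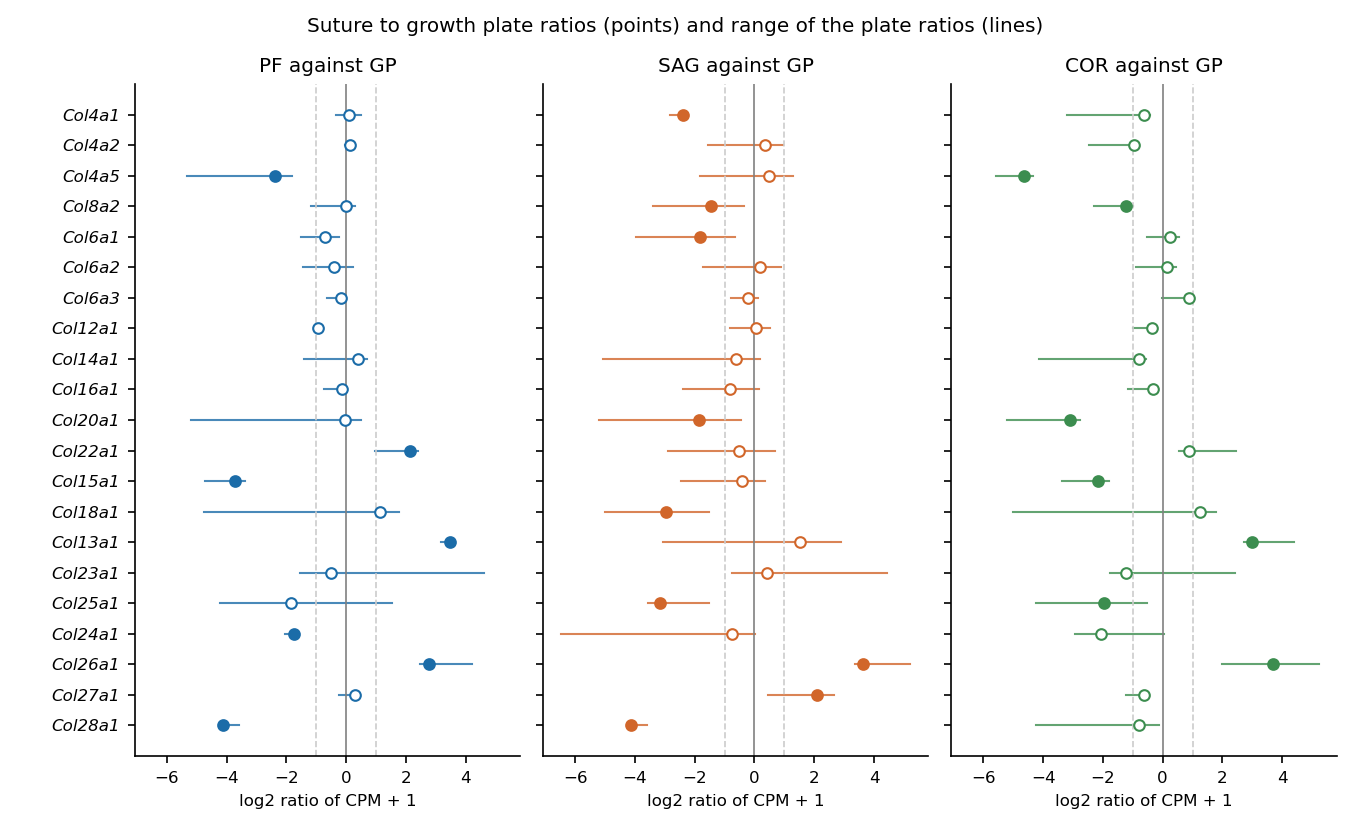
Points give the log2 ratio of each suture to GP for the 21 members and lines the range of the 4 plate ratios, with filled points where the call was met and dashed lines at the 2-fold bound. Col26a1 lies to the right in all 3 panels (2.75, 3.64 and 3.70) and Col13a1 in PF and COR (3.46 and 3.00), while the line of Col13a1 in SAG crosses 0.

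Members also differed within a tissue, and part of this followed the osteoblast genes Runx2, Sp7, Alpl, Ibsp, Spp1, Bglap, Dmp1, Phex, Ifitm5 and Pth1r. Their summed level varied between plates, from 1627 CPM on SAG plate 2 and 1633 on GP plate 1 to 95341 on COR plate 1, with Spp1 alone at 251 to 82132 CPM on the 8 plates, and 90 cells had reads of at least 5 of the 10 (35 in COR, 30 in PF, 18 in GP and 7 in SAG). These 90 cells held 33% of all reads other than Rn45s. They held 99.9% of the Col22a1 reads, with Col22a1 in 32 of the 90 cells and 1 of the other 235, and 84.7% of the Col13a1 reads, with Col13a1 in 49 and 13. They held 54.9% of the Col24a1 reads. Its Spearman correlation with the summed osteoblast genes was 0.47 in PF, 0.33 in SAG (4 cells with a read), 0.07 in COR and -0.12 in GP.

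Other members were scarce in the same cells. Col14a1 was in 6.7% of the 90 cells and 53.2% of the others, Col8a2 in 20% and 54.04%, Col4a1 in 12.2% and 38.3%, and Col4a2 in 12.2% and 50.2%. The type VI chains stood between, Col6a1 being in 74.4% and 70.6%. Across PF cells the Spearman correlation with the summed osteoblast genes was 0.64 for Col13a1 (n = 87; 0.62 and 0.64 within plates), 0.52 for Col22a1 (0.41 and 0.59) and -0.52 for Col14a1 (-0.72 and -0.43). In COR it was 0.35 for Col13a1 (n = 74), but -0.02 and 0.28 within the plates. The part of cell composition in the differences between tissues was not tested.

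The tendon genes Scx, Tnmd, Mkx, Fmod, Thbs4 and Kera marked another group. Fmod was high in every tissue, from 1271 CPM in COR to 5602 in GP, and its part in their sum was not separated. At least 3 of the 6 were read in 60 cells, 38 of them from GP, and these cells held 22.1% of the reads. Col8a2 was in 83.3% of the 60 cells and 35.8% of the rest, Col14a1 in 81.7% and 30.9%, and Col24a1 in 40% and 12.8%. Within GP (n = 78) the correlation with the summed tendon genes was 0.75 for Col8a2, 0.75 for Col6a1 and 0.74 for Col14a1, and between 0.56 and 0.75 for these 3 on each GP plate. For Col24a1, which was read in 32 of all 78 GP cells, it was 0.32. With the reads per cell other than Rn45s, Col8a2, Col6a1 and Col14a1 correlated at 0.48, 0.65 and 0.55 on GP plate 1. On GP plate 2 these values were 0.18, 0.16 and 0.07. The summed fibroblast genes gave 0.63, 0.56 and 0.59 for the same members in GP. Of the cartilage genes (Sox9, Acan, Matn1 and others of a list of 12, with 5 of the left-out collagens among them), at least 6 were read in 53 cells, 45 from SAG and 8 from GP. Col27a1 was in 49.1% of these 53 and 35.7% of the others, with 39.2% of its reads in cells that held 12.5% of all reads. Its correlation with the cartilage genes was 0.45 in SAG (n = 86, 0.27 and 0.54 within plates) and -0.03 in GP (n = 78).

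**Figure D5:**
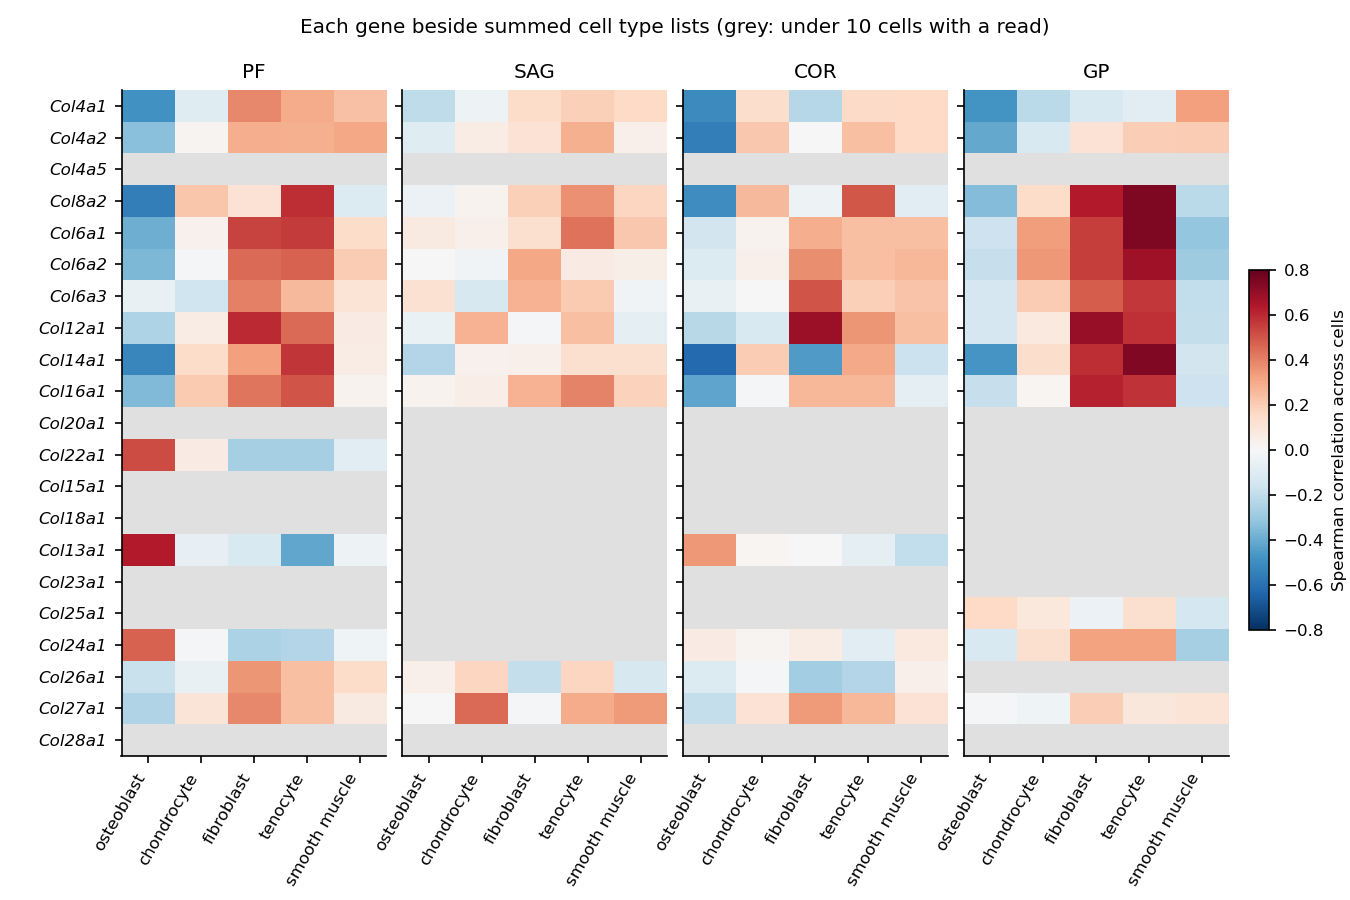
Colours give the Spearman correlation across cells between each member (rows) and the summed level of 5 cell type lists (columns), 1 panel for each tissue. Red is positive, blue negative, and grey marks members with reads in under 10 cells of the tissue. In PF, Col13a1 and Col22a1 are red for osteoblast genes (0.64 and 0.52) and Col14a1, Col8a2 and Col4a1 blue (-0.52, -0.55 and -0.49), and in GP the type VI chains, Col8a2 and Col14a1 are red for fibroblast and tenocyte genes.

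A small set of cells carried the multiplexin Col18a1, whose end fragment is endostatin, and the von Willebrand domain collagen Col28a1, known from peripheral nerve. Of 6 genes of glia and neurons (Sox10, Mbp, Cdh19, S100b, Erbb3, Tubb3), at least 3 were read in 8 cells, 1 in PF, none in SAG, 2 in COR and 5 in GP. These 8 cells held 3.42% of the reads, but 97% of the Col28a1 reads (5 of the 8 cells and 2 of the other 317), 90.5% of the Col18a1 reads (8 and 10 cells) and 76.8% of the Col20a1 reads (3 and 6 cells). Each of the 8 cells had Col4a1, which was in 93 of the other 317, and none had Col12a1, which was in 279 of the others. The limit of 3 genes was chosen after the values had been seen. With 2 genes (14 cells) the share of Col18a1 reads was 91.9% and that of Col28a1 reads 99.9%, and with 4 genes (6 cells) they were 89.5% and 40.9%.

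Col18a1 was at 0.169 and 80.6 CPM on the PF plates, 7.27 and 0 in SAG, 0 and 80.3 in COR and 22.9 and 30.9 in GP, with reads in 3 PF, 3 SAG, 3 COR and 9 GP cells. Without the 8 cells its levels in PF, SAG, COR and GP were 1.18, 2.90, 9.42 and 4.25 CPM, and the ratio of SAG to GP, called at -2.96 with them (-1.88 with SAG plate 1 alone), was -0.43. Col28a1 was at 9.21 CPM in COR and 16.6 in GP and had no read in PF and SAG, and without the 8 cells it was at 0 in COR and 0.873 in GP. Col20a1 was at 20.3, 5.05, 1.56 and 20.9 CPM in PF, SAG, COR and GP, and at 0, 5.05, 1.61 and 6.68 without them, so that its ratios of SAG and COR to GP, called at -1.86 and -3.10, were -0.34 and -1.56 and no longer called. Its mean over the 4 tissues was then below 5 CPM, so it was no longer tested. The ratio of SAG to GP for Col20a1 was -0.68 with SAG plate 1 alone, not called either. Col4a2 was at 69.4 CPM in COR with and 61.7 without the 8 cells. Col4a1 was at 109 CPM in COR with and 64.7 without them, at 170 and 114 in GP, and at 182 and 180 in PF.

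Col15a1, the other multiplexin, a proteoglycan of the outer basement membrane, was read in 5 SAG, 5 COR and 9 GP cells and in none of 87 PF cells, which allows a share of up to 3.45%. Its level was 12.2 CPM in GP, 8.89 in SAG and 1.97 in COR. Against the floor of 3 reads, GP was at least 123-fold and SAG at least 89.8-fold higher than PF, although 52.9% and 55.3% of the SAG and GP reads were from 1 cell each. It was at 3.78 and 12.3 CPM on the SAG plates. The 8 glial-gene cells held 35.3% of its reads, and 5 cells had both multiplexins.

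The partners of these collagens were read from lists of 17 basement membrane genes, 11 collagen receptors and 6 fibril surface proteins, of which 14, 10 and 5 passed the filter. In SAG against the other tissues, the laminin chain Lamc3 was at 132 CPM (67.5 and 175 on the plates) and had no read in PF, COR and GP. The heparan sulphate proteoglycan Hspg2 was at 1032 CPM in SAG against 34.1, 63.1 and 60.1 in PF, COR and GP, but at 54.6 on SAG plate 1 and 1682 on plate 2. For PF against SAG, 1 of the 14 basement membrane genes was higher in PF (background 17.1%) and 4 in SAG (12.1%). With SAG plate 1 alone 5 were higher in PF, Nid1, Lama2, Lama3, Lamb1 and Lamc1 (17.1%), and 2 in SAG (15.3%).

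Antxr1, a receptor that binds type VI collagen, was at 3029 CPM in SAG, 340 on plate 1 and 4817 on plate 2, against 179, 92.8 and 147 in PF, COR and GP. Gpr126, a receptor for type IV collagen, was at 83.6 and 48.5 CPM on the GP plates against 0.309 to 26.2 on the suture plates, and GP was called over PF, SAG and COR (-3.58, -1.28 and -1.89, and -1.77 with SAG plate 1 alone). Among fibril surface proteins, Comp, which binds FACIT collagens, was at 1665 CPM in GP, 325 in SAG (726 and 57.7 on the plates), 3.80 in PF and 0 in COR. Fmod was at 5602 CPM in GP, 2872 in SAG (4509.5 and 1783 on the plates) and 2775 in PF against 1271 in COR. GP and PF stood above COR as for Col8a2. Unlike Col8a2, Fmod was also called higher in SAG than in COR (1.18, and 1.83 with SAG plate 1 alone). Of the 14 left-out collagens, 5 were higher in GP than in COR (background 6.68%) and 2 higher in PF than in COR (5.1%). None was called between PF and GP, where 7 of the 21 members were, 3 higher in PF (7.53%) and 4 in GP (8.27%, with Col15a1 and Col28a1 among them). The left-out collagens were not level there. Col10a1 was at 0 CPM in PF and 4890 in GP, and Col2a1 at 47.5 and 2349. On GP plate 1 they were at 0 and 53.4, so the rule was not met. Col1a1, Col1a2, Col5a2 and Col8a1 were higher in PF, by less than 2-fold. The median log2 difference of the 14 was -0.55.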

How the data were processed

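Single cells of 4 tissues were measured, 1 record for each of 360 cells, and the authors deposited raw read counts per gene and cell in 8 tables, 1 for each plate. The submitters' processing notes name STAR 2.5.3a, HTSeq, Seurat 2.3.0, R 3.4.4 and the build mm9. The counting annotation and the use of strand are not given in the sources used here, so reads of overlapping genes (22 exon bases shared by Col4a1 and Col4a2, 43 by Col4a2 and Gm15419, 36 by Col7a1 and Mir711) cannot be told apart. The labels and the methods describe different ways of preparing the RNA. Groups came from titles and source names, and 0 columns lacked a cell. The labels of 1 cell disagreed, and it was placed in SAG by its title and dropped in an alternative.

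The members and gene lists were chosen with earlier results of these data known, and some genes of the glial list are not reported here and did not enter it. Cells with at least 500 genes and 10000 reads were kept, which removed 35, and no doublet caller was run because cells were sorted singly into wells. Total reads per passing cell ran from 12375 to 1907976. Counts were summed per tissue and plate and divided by all reads other than Rn45s, and calls were made as given with the results, with a pseudocount of 1 CPM. Since each tissue is 1 sample, no test was run. Members above the mean of 5 CPM are described singly and the others by count, and partner genes are named from those called. Alternatives changed the scaling (Rn45s counted, or TMM factors of edgeR 4.0.16 in R 4.3.3), the filters, the pseudocount, the weight of cells and the cells or plates used. Computation used Python 3.11.15, numpy 2.4.6, pandas 2.3.3 and scipy 1.17.1, and the calling step was tested on simulated data. Exon lengths and mm9 loci came from GENCODE vM1. Start sequences came from RefSeq, GRCm38.p6.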

Additional observations from a re-analysis of the deposited data

How the results depend on the processing

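No paired analysis was possible because the plates of a tissue are shared with no other tissue and no result comes from a test. Of 626 values of single members under an alternative, 623 kept their sign and 501 moved by less than 1 SD of the plate ratios. Part of this was fixed in advance. A change of the minimum mean leaves the ratio of a gene as it was. A call requires plate ratios of one sign, so signs could not turn with plate 1 or plate 2 cells only, or without SAG plate 2. Of the 43 calls of a member in a comparison, 11 were kept under every alternative run: PF over COR for Col4a2 and Col8a2, PF over SAG for Col4a1, COR over SAG for Col6a1, PF over GP for Col13a1 and Col26a1, GP over PF for Col24a1, GP over SAG for Col4a1, SAG over GP for Col26a1, and COR over GP for Col13a1 and Col26a1. The other 32 were lost under 1 or more. A mean of at least 20 CPM lowered the members called from 5 to 3 for PF against COR, from 6 to 3 for SAG against COR, from 7 to 4 for PF against GP and from 7 to 3 for COR against GP, since fewer genes enter, and a pseudocount of 10 CPM gave 3 for PF against COR. With plate 1 cells only, where no plate ratio limits a call, the counts were 10 for PF against COR, 13 for SAG against COR, 14 for PF against GP, 16 for SAG against GP and 16 for COR against GP. With plate 2 cells only they were 12 for PF against COR, 15 for PF against SAG and 17 for SAG against COR. For none of these counts was the share of all tested genes computed, so they cannot be set against a background. With Rn45s counted in the totals the ratios of Col12a1 (0.88) and Col27a1 (0.055) for PF against SAG and of Col23a1 for SAG against COR (-0.014) changed sign. Leaving out the 8 cells with 3 or more glial genes, an alternative chosen after seeing the data, turned no sign. It ended the calls of Col15a1 in each comparison where it was called, of Col12a1 for PF against SAG and of Col28a1 for PF and SAG against GP. It also ended those of Col18a1 (-0.43) and Col20a1 (-0.34) for SAG against GP and of Col20a1 (-1.56) for COR against GP. For PF against COR it gave 5 calls, 4 of them as before, with 4 members higher in PF. Col4a1 was then at 180 CPM in PF and 64.7 in COR. For COR against GP it gave 6 calls, 5 of them as before. The share of all tested genes was not computed for these counts either. Col15a1, Col18a1, Col20a1 and Col28a1 then fell below the mean of 5 CPM and were not tested. For Col15a1 in PF against SAG the filter alone ended the call, since SAG held none of the 8 cells and PF no Col15a1 read. The stricter cell filter (1500 genes, 50000 reads) left 237 cells and none of SAG plate 2. For the rare members, the number of cells limits the shares.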
